A study of Mus musculus with 6 samples.

Results

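The genes described are 42 regulators and machinery genes of the cell division cycle, taken by symbol from the deposited gene table and sorted by the phase in which they act. They comprise 12 genes of entry from G1, 14 genes of DNA replication and 16 genes of mitosis, out of 54532 genes in the table. All 42 were found and all 42 passed the filter on low counts, as did 16623 genes in all. The tissue was inguinal white fat, a depot under the skin of the mouse, read by RNA-seq in 3 control libraries and 3 Cdo1AKO libraries. The controls carried the floxed alleles (Cdo1flox/flox) and are called WT in the genotype label, while in Cdo1AKO mice Cdo1, the cysteine dioxygenase gene, was deleted in adipose tissue. All mice were 8 weeks old when placed on a high-fat diet and stayed on it for 15 weeks, so no group on another diet was compared. The Cre line behind the deletion and the sex of the mice are not given in the sources used here, nor whether each library came from a separate animal. P-values therefore measure only the spread between these libraries.

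A cell enters division when D-type cyclins with Cdk4 and Cdk6, and then E-type cyclins with Cdk2, phosphorylate the retinoblastoma protein and release E2F transcription factors. E2F then drives the genes that license and copy DNA, among them the Mcm helicase, Pcna and the enzymes that make nucleotides. The mitosis genes are switched on later, from S phase into G2, through promoters that carry a CHR element (cell cycle genes homology region) and CCAAT boxes, and they build the spindle, separate the chromosomes and are then shut down. Mature adipocytes rarely divide, and dividing cells in fat are known among macrophages, adipocyte progenitors and endothelium. The inguinal depot also encloses a lymph node, whose lymphocytes divide in germinal centres.

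The promoters below are examples from each phase, and the part of their motifs in the levels of the genes was not tested. The mitosis promoters shown all hold a CHR match, which those of Ccnb1, Cenpe and Birc5 lack. That of the helicase gene Mcm2 holds a CHR match too. Each is the 250 bases before a RefSeq transcript start on mouse build GRCm38.p6, printed 5′ to 3′ on the gene's strand. They lie at chr10:69352913-69353162 on the minus strand for Cdk1, chr2:164769679-164769928 on the plus strand for Ube2c, chr11:99024190-99024439 on the minus strand for Top2a, chr1:128359706-128359955 on the minus strand for Mcm6, chr8:75109259-75109508 on the plus strand for Mcm5 and chr17:29090729-29090978 on the plus strand for Cdkn1a. Capitals mark letter matches on either strand, for the CHR element to TTTGAA, for the CCAAT box to its name, and for E2F to any of TTTCCCGC, TTTCGCGC, TTTGCCGC and TTTGGCGC. Capitals of matches that overlap or abut run together. Cdkn1a has a further RefSeq promoter that is not printed, at chr17:29093519-29093768 on the plus strand, which likewise holds no match to these motifs.
Cdk1: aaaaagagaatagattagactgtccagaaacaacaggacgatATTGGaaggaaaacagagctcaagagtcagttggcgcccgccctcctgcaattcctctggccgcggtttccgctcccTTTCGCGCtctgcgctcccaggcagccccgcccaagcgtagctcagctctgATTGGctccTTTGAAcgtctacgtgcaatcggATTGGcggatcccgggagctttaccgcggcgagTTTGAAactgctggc
Ube2c: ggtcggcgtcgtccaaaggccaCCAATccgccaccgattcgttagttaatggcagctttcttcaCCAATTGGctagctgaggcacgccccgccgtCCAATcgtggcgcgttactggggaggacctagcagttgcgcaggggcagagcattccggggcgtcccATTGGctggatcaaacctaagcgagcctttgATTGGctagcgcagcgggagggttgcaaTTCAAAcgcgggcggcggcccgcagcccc
Top2a: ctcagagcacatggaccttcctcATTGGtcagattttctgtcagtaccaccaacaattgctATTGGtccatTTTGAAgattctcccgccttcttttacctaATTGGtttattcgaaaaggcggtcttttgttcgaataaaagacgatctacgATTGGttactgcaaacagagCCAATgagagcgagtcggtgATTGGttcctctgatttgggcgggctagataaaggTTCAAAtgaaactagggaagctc
Mcm6: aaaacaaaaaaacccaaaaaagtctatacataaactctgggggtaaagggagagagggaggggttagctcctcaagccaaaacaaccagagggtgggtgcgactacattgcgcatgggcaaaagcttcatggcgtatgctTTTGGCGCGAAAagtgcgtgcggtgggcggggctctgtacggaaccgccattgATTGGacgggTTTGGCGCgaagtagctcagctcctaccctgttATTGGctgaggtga
Mcm5: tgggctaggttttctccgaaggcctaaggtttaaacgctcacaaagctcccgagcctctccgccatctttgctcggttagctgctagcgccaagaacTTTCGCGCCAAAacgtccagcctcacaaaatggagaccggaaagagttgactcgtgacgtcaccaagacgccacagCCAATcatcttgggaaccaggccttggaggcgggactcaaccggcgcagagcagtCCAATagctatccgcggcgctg
Cdkn1a: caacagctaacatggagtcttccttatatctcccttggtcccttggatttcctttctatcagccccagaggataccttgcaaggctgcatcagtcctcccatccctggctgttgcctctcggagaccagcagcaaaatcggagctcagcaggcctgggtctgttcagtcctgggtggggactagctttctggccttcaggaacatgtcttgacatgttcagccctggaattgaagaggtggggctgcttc

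Promoters were found for 33 of the 42 genes, 38 promoters in all. A CHR match lay in 7 of 13 mitosis promoters (53.8%), 1 of 14 replication promoters (7.14%) and 0 of 11 G1 promoters, against 16% of all 32851 RefSeq promoters of the same length. CCAAT matches lay in 12 mitosis promoters (92.3%), 11 replication promoters (78.6%) and 2 G1 promoters (18.2%), against 33.8% of all. E2F matches lay in 5 replication promoters (35.7%), 1 mitosis promoter (7.69%) and 0 G1 promoters, against 1.86% of all. All 7 mitosis promoters with a CHR match, and 5.55% of all promoters, also held a CCAAT match. Such matches describe the sequence only and are not shown to be bound.

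Total counts ran from 16275184 to 19205804 per library. Cdo1 itself stood at 887, 432 and 631 CPM in control 1, 2 and 3 and at 123, 392 and 134 CPM in Cdo1AKO 1, 2 and 3. CPM here means counts scaled to 1000000 per library after correction of library sizes. All 3 knockout libraries lay below all 3 controls, with a log2 fold change of -1.59 ± 0.53 (SE) that missed the threshold (edgeR adjusted p = 0.416). Adipocyte markers such as Adipoq and Plin1 were abundant in every library, with none of 9 at 0. Their sum was 56226, 35878 and 43584 CPM in control 1, 2 and 3 and 21901, 47664 and 23074 CPM in Cdo1AKO 1, 2 and 3. In each genotype the library with the highest sum also had the highest Cdo1.

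Lymph node content differed within both genotypes. Ms4a1, the B cell gene for CD20, was read 1, 2679 and 1536 times in control 1, 2 and 3 and 1517, 14 and 1526 times in Cdo1AKO 1, 2 and 3. Scaled, that is 0.0614, 143 and 82.4 CPM in controls and 75.8, 0.901 and 83.8 CPM in Cdo1AKO. Control 1 and Cdo1AKO 2 thus held almost no B cell transcript, and each of the other 4 libraries held more than 5 CPM. The summed level of 10 B cell markers ran from 2.52 to 1378 CPM in controls and from 8.43 to 918 CPM in Cdo1AKO, and among 7 lymph node stroma markers 4 were at 0 in both control 1 and Cdo1AKO 2. Cdo1AKO 1 and 3 were close to each other (mean chi-square per gene of 5.64), while Cdo1AKO 2 stood far from both (195 and 204). Because the tissue was sequenced in bulk, more cells of a type and more RNA per cell cannot be told apart.

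No gene of the 16623 tested had an edgeR adjusted p under 0.05 between Cdo1AKO and control (0%), the smallest adjusted p being 0.196, and 10.4% had an unadjusted p under 0.05. None of the 42 cell cycle genes passed, with a smallest adjusted p of 0.396. At an unadjusted p under 0.05 stood 4 of the 42, namely Ccnd1, Ccnd3 and Gins2 on the higher side, where 4.66% of all genes stood, and Cdc6 on the lower side, where 5.71% did. DESeq2 called 271 genes (1.48%) and limma-voom 0 (0%), and neither called any of the 42. By the authors' deposited table, 275 genes (1%) had an adjusted p under 0.05, and the smallest among the 42 was 0.246.

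With all 6 libraries, fold changes nevertheless leaned upward. The log2 fold change was above 0 for 9 of 12 G1 genes, 12 of 14 replication genes and 16 of 16 mitosis genes, against 56% of all genes. Median log2 fold changes were 0.25 for G1, 0.38 for replication and 0.41 for mitosis, against 0.058 over all genes. The lean rested largely on control 1. Without that library the medians were 0.16, 0.086 and -0.015, against 0.044 over all genes, with 7, 9 and 8 genes above 0. The groups did not overlap for 7 of the 42 genes, of which 6 were higher and 1 lower in Cdo1AKO. Over all genes, 8.87% were higher and 9.73% lower without overlap.

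**Figure D1:**
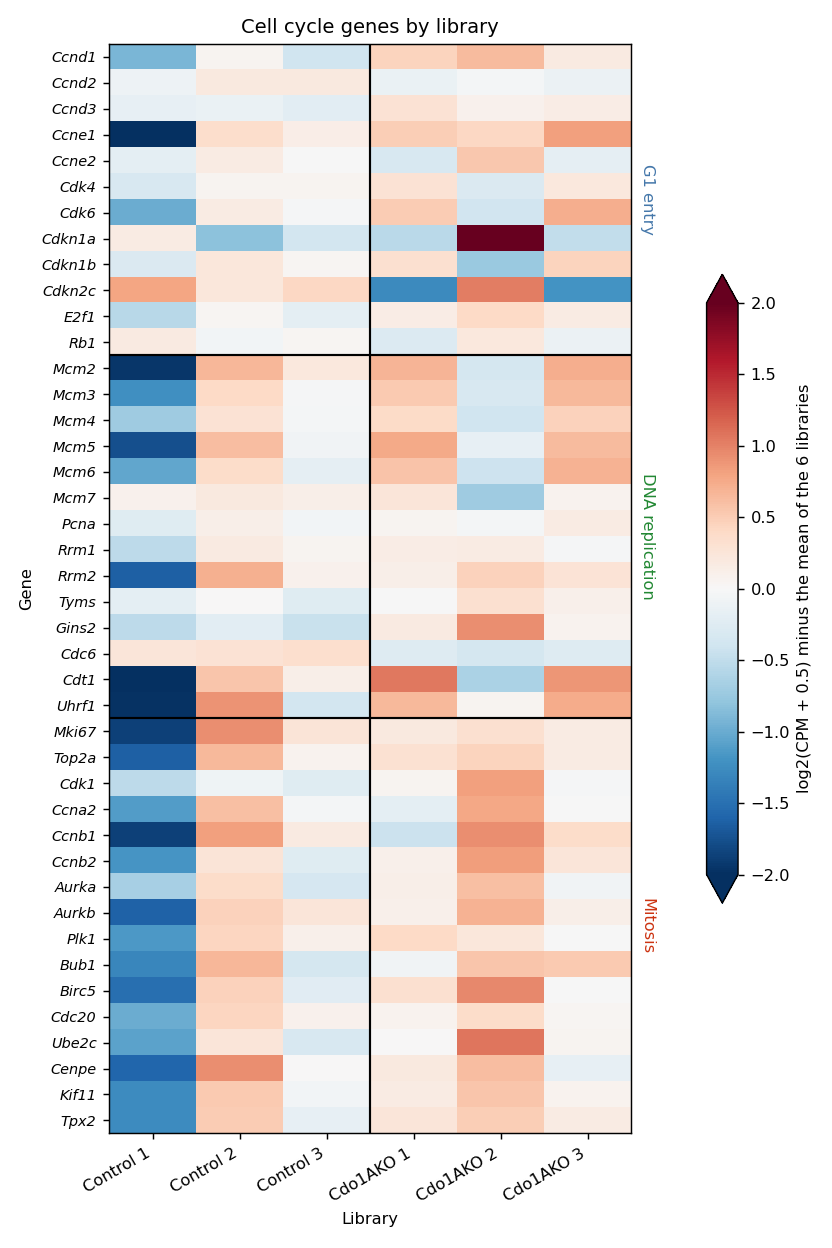
Level of each of the 42 genes (rows, by phase) in each of the 6 libraries (columns), as log2(CPM + 0.5) minus the gene's mean over the libraries. The mitosis block is lowest in control 1 for 16 of 16 genes and is at or above the mean in Cdo1AKO 2, while most Mcm genes are below the mean in Cdo1AKO 2.

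Among the G1 genes the D-type cyclins went different ways. Ccnd1, cyclin D1 (chr7:144929931-144939925, minus strand, in mm10 as are all gene positions here), was at 12.5, 24.9 and 18.1 CPM in control 1, 2 and 3 and at 32.7, 37.6 and 27.4 CPM in Cdo1AKO 1, 2 and 3. Every knockout library lay above every control. The log2 fold change was 0.82 ± 0.28 (SE), with an unadjusted p of 0.0256 and an edgeR adjusted p of 0.419, and was 0.48 in the 4 libraries with Ms4a1 (2 per genotype). Ccnd3, cyclin D3 (chr17:47505051-47599691, plus strand), ran from 111 to 117 CPM in controls and was 159, 136 and 143 CPM in Cdo1AKO 1, 2 and 3. Again the groups did not overlap, with a log2 fold change of 0.35 ± 0.13 (SE) and an edgeR adjusted p of 0.435. Ccnd2, cyclin D2, the most abundant of the 3 D-type cyclins per kilobase of transcript (22.4 CPM per kb in controls), was 183, 225 and 224 CPM in controls and 179, 192 and 180 CPM in Cdo1AKO. Its groups overlapped and its log2 fold change was -0.20 ± 0.15 (SE). Oraov1, which overlaps Ccnd1 on the opposite strand, had 2885 counts over the 6 libraries against 2744 for Ccnd1, and Bysl overlaps Ccnd3 likewise with 2476 counts against 14032. Whether the counting used strand is not stated in the labels, so reads in such overlaps cannot be assigned.

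Past the D-type cyclins, E2f1 and Ccne1 also had no overlap between groups. E2f1, the E2F factor of the list, was 7.30, 11.3 and 9.49 CPM in controls and 12.2, 14.7 and 12.4 CPM in Cdo1AKO (log2 fold change 0.48 ± 0.22 SE, edgeR adjusted p = 0.523, and 0.24 in the 4 libraries with Ms4a1). Ccne1, cyclin E1, was 0.92, 7.76 and 6.65 CPM in controls and 8.60, 8.17 and 10.9 CPM in Cdo1AKO. The distance between its groups rests on control 1: the log2 fold change was 0.85 ± 0.69 (SE) with all libraries and 0.35 without control 1. With these, 4 of the 12 G1 genes were higher without overlap, against 8.87% of all genes.

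Cdkn2c and Cdkn1a, inhibitors of cyclin-dependent kinases, had the highest mean levels per kilobase of the G1 genes over the 6 libraries, and both varied widely. Cdkn1a, the p21 gene (chr17:29090976-29100727, plus strand), was 83.8, 42 and 57.6 CPM in controls and 51.0, 309 and 53 CPM in Cdo1AKO. Cdo1AKO 2 alone lay above the controls, and the other 2 knockout libraries lay within them. The log2 fold change of 1.17 ± 0.76 (SE), the largest of the 42, became -0.23 without Cdo1AKO 2. Cdkn2c, the p18 inhibitor of Cdk4 and Cdk6 (chr4:109660876-109667189, minus strand), was 128, 87.2 and 99.2 CPM in controls and 30.5, 151 and 32.2 CPM in Cdo1AKO. Here Cdo1AKO 1 and 3 lay below every control and Cdo1AKO 2 above every control, for a log2 fold change of -0.56 ± 0.65 (SE) over all libraries and of -1.74 without Cdo1AKO 2. Cdkn1b, the p27 gene, ran the other way in Cdo1AKO 2, at 66.3, 94.6 and 82.6 CPM in controls and 101, 48.2 and 110 CPM in Cdo1AKO. Per kilobase, mean levels in controls were 39.1 CPM for Cdkn2c, 17.8 for Cdkn1b and 17.2 for Cdkn1a.

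The groups overlapped for Cdk4, Cdk6, Rb1 and Ccne2. Cdk4 was 47.0 to 60.9 CPM in controls and 47.7 to 71.3 CPM in Cdo1AKO, and Rb1, the retinoblastoma gene, was 64.4 to 76.5 CPM and 55.4 to 78.2 CPM. Cdk6 was 7.79, 17.9 and 15.6 CPM in controls and 22.9, 12.2 and 26.6 CPM in Cdo1AKO, lowest in each genotype in the library without Ms4a1. Ccne2, cyclin E2, spanned 3.74 to 4.92 CPM in controls and 3.40 to 6.56 CPM in Cdo1AKO. Cdk4, Rb1 and Ccne2 each overlap other expressed genes on the opposite strand (Tspan31, Rcbtb2 with Lpar6, and Ints8).

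**Figure D2:**
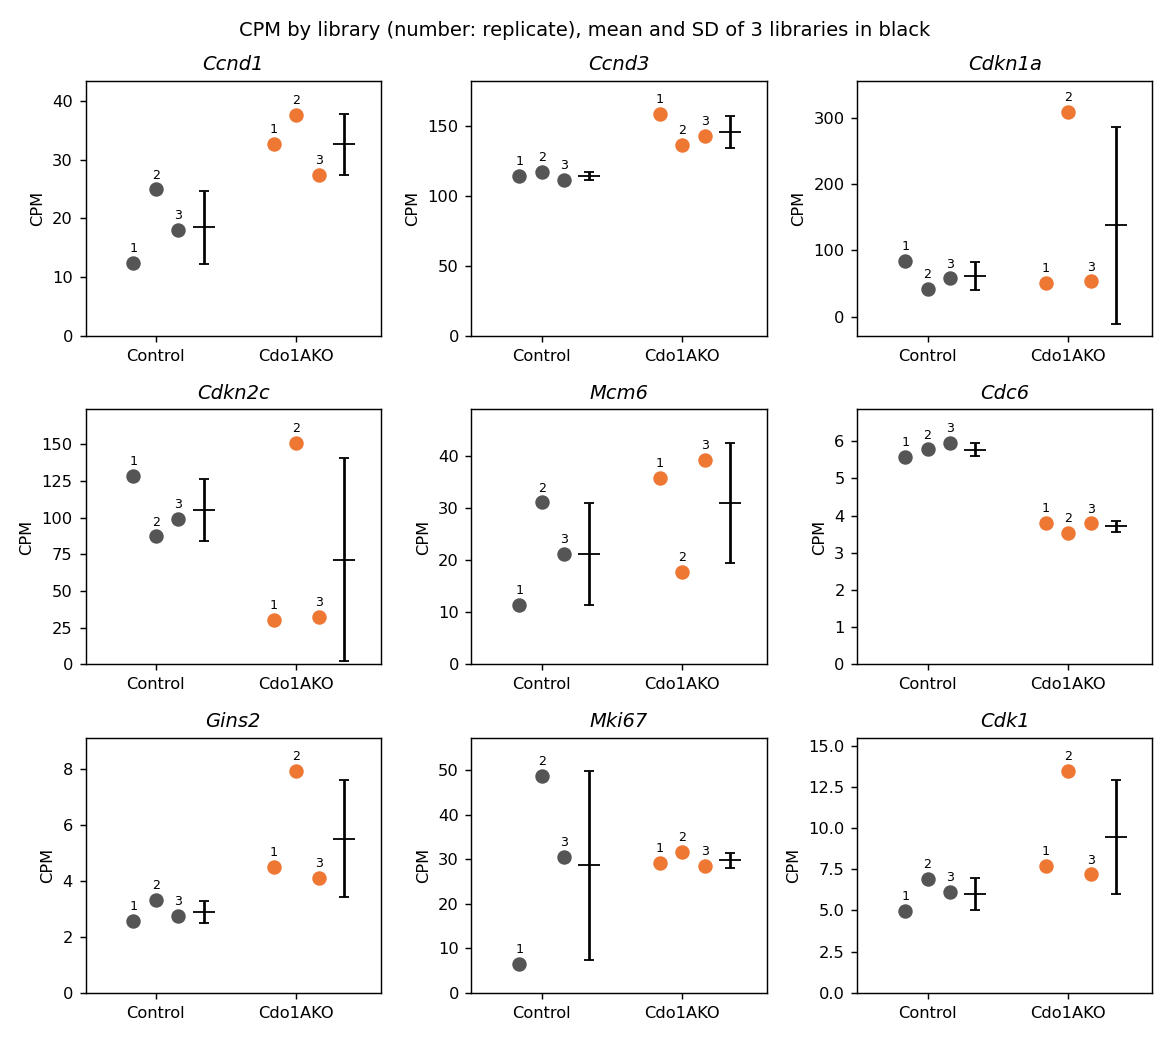
CPM of 9 cell cycle genes in each library (points, numbered by replicate), with the mean and SD of the 3 libraries of each group in black and the vertical axis differing between panels. Ccnd1, Ccnd3, Gins2 and Cdk1 do not overlap on the higher side and Cdc6 on the lower side, while Cdkn1a reaches 309 CPM in Cdo1AKO 2 only.

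Of the replication genes, Cdc6 was the only one of the 42 that was lower in every knockout library than in every control. Cdc6, which loads the Mcm helicase onto origins (chr11:98907801-98923940, plus strand), was 5.58, 5.78 and 5.95 CPM in controls and 3.80, 3.54 and 3.79 CPM in Cdo1AKO. Its libraries agreed closely within both groups, in those with Ms4a1 and in those without. The log2 fold change was -0.64 ± 0.20 (SE), with an unadjusted p of 0.0189 and an edgeR adjusted p of 0.396, and it was -0.63 in the 4 libraries with Ms4a1 (2 per genotype). Cdt1, the partner of Cdc6 in loading, was 2.27, 15.8 and 11.5 CPM in controls and 22.4, 6.63 and 19.9 CPM in Cdo1AKO, lowest in each genotype in the library without Ms4a1.

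Gins2 encodes a subunit of the GINS complex, which joins the helicase at the fork (chr8:120578633-120589304, minus strand). It was 2.58, 3.32 and 2.73 CPM in controls and 4.50, 7.91 and 4.12 CPM in Cdo1AKO. No knockout library reached down to a control, and Cdo1AKO 2 was highest. The log2 fold change was 0.93 ± 0.33 (SE), with an unadjusted p of 0.0297 and an edgeR adjusted p of 0.431. It was 0.58 without Cdo1AKO 2 and 0.50 in the 4 libraries with Ms4a1. Gse1, on the opposite strand, overlaps Gins2 and had 2868 counts against 443.

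The helicase genes Mcm2 to Mcm6 were lowest in the library without Ms4a1 in both genotypes, which rests on 1 such library per genotype. Of all genes, 42% in controls and 44.9% in Cdo1AKO were lowest in that library. Mcm6 (chr1:128331590-128359664, minus strand) was 11.5, 31.1 and 21.2 CPM in controls and 35.8, 17.8 and 39.3 CPM in Cdo1AKO. In each genotype the library without Ms4a1 was lowest, and Cdo1AKO 2 was 1.55 times control 1. Mcm2 was 3.25, 22.4 and 16.2 CPM in controls and 22.7, 10.9 and 23.4 CPM in Cdo1AKO, and Mcm5 was 4.05, 23 and 14.1 CPM and 25.3, 13.1 and 23.3 CPM. Mcm3 spanned 8.53 to 27.6 CPM in controls and 16.6 to 32.7 CPM in Cdo1AKO, and Mcm4 13.3 to 27.3 CPM and 16.6 to 30.7 CPM. The log2 fold changes of these 5 ran from 0.30 to 0.59, and the smallest edgeR adjusted p among them was 0.694. Mcm7, which shares its locus with Cops6 and Ap4m1 on the opposite strand (10023 and 2808 counts against 4772), was 45.8, 49.2 and 46.6 CPM in controls and 50.7, 26.1 and 45.0 CPM in Cdo1AKO.

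Pcna, the sliding clamp of the polymerases (chr2:132249162-132253314, minus strand), had the highest level of the replication genes per kilobase, 25.6 CPM in controls and 27.8 CPM in Cdo1AKO. It varied little, at 53.6, 68.9 and 61.6 CPM in controls and 66.2, 62.3 and 71.7 CPM in Cdo1AKO, for a log2 fold change of 0.12 ± 0.15 (SE). Tyms, thymidylate synthase, was 5.58, 6.53 and 5.36 CPM in controls and 6.45, 8.23 and 6.97 CPM in Cdo1AKO, with a log2 fold change of 0.31 ± 0.21 (SE) and an edgeR adjusted p of 0.658. The ribonucleotide reductase subunits differed from each other in spread. Rrm1, the large subunit, spanned 16.5 to 27.3 CPM over the 6 libraries, while Rrm2, the subunit made in S phase, was 2.02, 12.3 and 7.83 CPM in controls and 8.00, 10.3 and 8.95 CPM in Cdo1AKO. Uhrf1, which maintains DNA methylation behind the fork, was 1.84, 16.6 and 6.65 CPM in controls and 14.0, 9.07 and 14.9 CPM in Cdo1AKO.

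All 16 mitosis genes were lowest in control 1. Mki67, the proliferation marker Ki-67 (chr7:135689784-135716361, minus strand), was 6.57, 48.7 and 30.6 CPM in controls and 29.1, 31.7 and 28.5 CPM in Cdo1AKO. Its controls differed among themselves far more than its knockout libraries did, and the log2 fold change was 0.055 ± 0.63 (SE, edgeR adjusted p = 0.983). Top2a, topoisomerase II alpha (chr11:98992943-99024189, minus strand), was 5.22, 27.2 and 18.1 CPM in controls and 21.5, 23.7 and 19.3 CPM in Cdo1AKO. Control 2 held the highest level of both genes, and the log2 fold change of Top2a was 0.35 ± 0.54 (SE).

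Cdk1, the kinase that drives mitosis (chr10:69335146-69352938, minus strand), was 4.97, 6.90 and 6.11 CPM in controls and 7.70, 13.4 and 7.19 CPM in Cdo1AKO. It was the only mitosis gene of the 16 without overlap between groups, and the log2 fold change was 0.65 ± 0.31 (SE), with an unadjusted p of 0.0778 and an edgeR adjusted p of 0.539. It was 0.31 without Cdo1AKO 2 and 0.19 in the 4 libraries with Ms4a1. It pairs with A and B type cyclins. Ccnb2, cyclin B2, was 1.41, 4.65 and 3.16 CPM in controls and 4.15, 7.21 and 4.61 CPM in Cdo1AKO, though a processed pseudogene (Ccnb2-ps) took 241 counts against 448 for Ccnb2. Ccnb1, cyclin B1, ran from 0.491 to 5.94 CPM in controls and from 2.20 to 6.43 CPM in Cdo1AKO. Ccna2, cyclin A2, ran from 2.64 to 9.84 CPM and from 5.45 to 11.2 CPM.

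Genes of protein breakdown at the end of mitosis were also lowest in control 1. Ube2c, the ubiquitin-conjugating enzyme of the anaphase-promoting complex (chr2:164769898-164778822, plus strand), was 2.27, 6.42 and 4.18 CPM in controls and 5.40, 11.8 and 5.6 CPM in Cdo1AKO. Cdo1AKO 2 stood highest, and the log2 fold change was 0.82 ± 0.49 (SE, edgeR adjusted p = 0.613). Cdc20, the activator of that complex, was 2.70, 8.08 and 6.33 CPM in controls and 6.2, 7.78 and 6.09 CPM in Cdo1AKO, and with Mki67 it had the highest level per kilobase of the 16 (3.05 CPM per kb in controls for Cdc20, 2.84 for Mki67). Elovl1 overlaps Cdc20 on the opposite strand with 4719 counts against 669.

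Birc5 (survivin), with Aurkb a part of the chromosomal passenger complex, was 1.23, 6.26 and 3.70 CPM in controls and 5.6, 9.07 and 4.39 CPM in Cdo1AKO (log2 fold change 0.76 ± 0.60 SE). Aurkb ran from 1.04 to 6.05 CPM in controls and from 4.60 to 7.14 CPM in Cdo1AKO. The mitotic kinases Aurka, Plk1 and Bub1 had log2 fold changes of 0.43, 0.31 and 0.60, and the spindle genes Cenpe, Kif11 and Tpx2 of 0.14, 0.40 and 0.47. Each of these 6 was lowest in control 1, and the edgeR adjusted p of every mitosis gene was 0.539 or more.

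Summed over a phase, the levels parted from each other in the 2 libraries without Ms4a1. The 12 G1 genes summed to 732, 758 and 759 CPM in control 1, 2 and 3 and to 726, 1041 and 730 CPM in Cdo1AKO 1, 2 and 3 (749.6 ± 15.0 and 832 ± 181, mean ± SD, n = 3 each). Cdkn1a and Cdkn2c together rose by more than the whole excess of Cdo1AKO 2 over Cdo1AKO 1 and 3. The other G1 genes summed to less in Cdo1AKO 2 than in those libraries. The 14 replication genes summed to 176, 337 and 267 CPM in controls and 346, 236 and 348 CPM in Cdo1AKO (260 ± 80.5 and 310 ± 64.2). The 16 mitosis genes summed to 38.3, 169 and 111 CPM in controls and 122, 167 and 118 CPM in Cdo1AKO (106 ± 65.6 and 136 ± 27.5). For replication both libraries without Ms4a1 were the lowest of the 6, whereas for mitosis control 1 was lowest and Cdo1AKO 2 the second highest. The ratio of the replication sum to the mitosis sum was therefore 4.61 in control 1 and 1.41 in Cdo1AKO 2, against 1.99 to 2.96 in the 4 libraries with Ms4a1. Since Ms4a1 fell into separate clusters, no correlation was computed over the libraries.

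**Figure D3:**
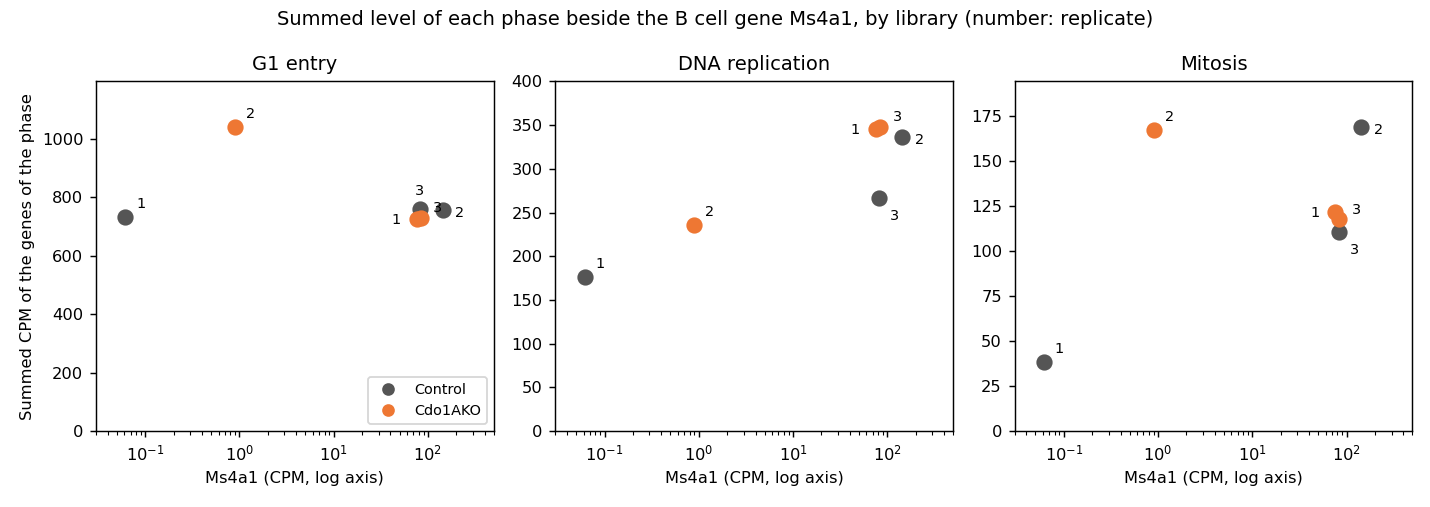
Summed CPM of the genes of each phase (vertical axis, from 0) against Ms4a1 in CPM (log axis) for the 6 libraries, numbered by replicate. At low Ms4a1 the mitosis sum is 38.3 CPM in control 1 and 167 CPM in Cdo1AKO 2, while the replication sums there, 176 and 236 CPM, are the lowest of the 6.

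Gene by gene, the 2 genotypes were compared by setting the libraries with Ms4a1 against the library without. In controls both libraries with Ms4a1 lay above control 1 for 8 of 12 G1 genes, 13 of 14 replication genes and 16 of 16 mitosis genes, against 42% of all genes. The median ratio (mean of control 2 and 3 over control 1) was 1.27 for G1, 2.06 for replication and 3.26 for mitosis. In Cdo1AKO both libraries with Ms4a1 lay above Cdo1AKO 2 for 5 G1 genes, 10 replication genes and 0 mitosis genes, against 44.9% of all genes, and they lay below it for 7, 4 and 15, against 46.5% of all genes. The median ratio there was 0.888 for G1, 1.70 for replication and 0.645 for mitosis. For 15 of 16 mitosis genes, the libraries with Ms4a1 lay above the other in controls and below it in Cdo1AKO, a pattern that 10.6% of all genes had, as did 4 G1 and 3 replication genes. Plk1 was the exception, with 5.40, 4.76 and 3.95 CPM in Cdo1AKO 1, 2 and 3.

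**Figure D4:**
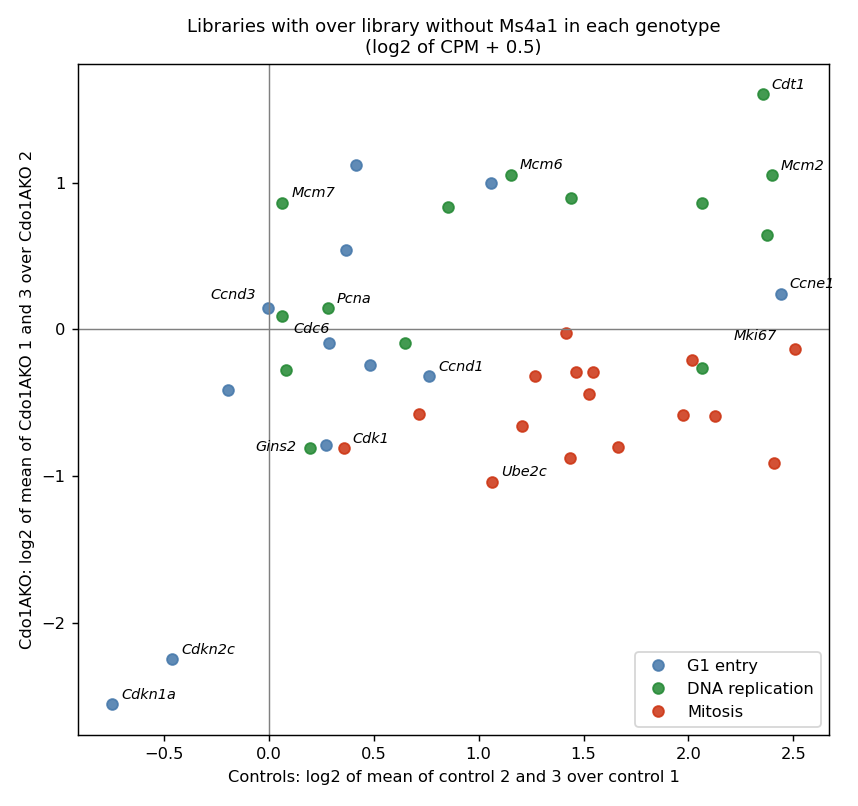
Each point is 1 of the 42 genes, coloured by phase, with log2 of (mean CPM of the libraries with Ms4a1 + 0.5) over (CPM of the library without + 0.5) in controls on the horizontal axis and in Cdo1AKO on the vertical axis. Mitosis genes lie right of and below 0, while most Mcm genes lie right of and above 0 and Cdkn1a and Cdkn2c are at the lower left.

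The size of that difference was taken from the interaction of Ms4a1 status with genotype in edgeR, adjusted over all 16623 genes. This test was added because of the values above and is no independent support for them. Each genotype has 1 library without Ms4a1, so the test takes that library to vary like those with Ms4a1, and the library and the absence of lymph node transcripts cannot be told apart. Of the 16 mitosis genes 12 had an interaction with an edgeR adjusted p under 0.05, all negative, against 11.6% of all genes in either direction and 8.04% in the negative one. The mitosis genes had a median interaction of -2.33 on the log2 scale, from -4.28 for Ccnb1 to -1.24 for Cdk1, where a negative value means a lower ratio of libraries with to without Ms4a1 in Cdo1AKO than in controls. For Mki67 it was -2.73 ± 0.39 (SE, edgeR adjusted p = 0.00706), for Top2a -2.33 ± 0.38 (0.0114) and for Ube2c -2.33 ± 0.47 (0.0226). Cdk1 missed the threshold (adjusted p = 0.053), as did Plk1, Bub1 and Aurka. Of the 14 replication genes Mcm2 and Rrm2 passed on the negative side and Mcm7 on the positive side, and the interaction of Mcm6 was -0.11 ± 0.34 (SE, edgeR adjusted p = 0.869). Among the G1 genes Cdkn2c, Cdkn1a and Ccne1 passed, at -1.81, -1.82 and -2.70.

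Compared directly, Cdo1AKO 2 exceeded control 1 for all 16 mitosis genes, with a median ratio of 4.68 and a range from 2.69 for Aurka to 13.1 for Ccnb1. Ccnb1 was below 1 CPM in control 1, and its pseudogene Ccnb1-ps took 30 counts against 406 for Ccnb1 over all libraries. Cdo1AKO 2 also exceeded control 1 for 11 of the 12 G1 genes (median ratio 1.38) and for 12 of the 14 replication genes (1.79). The phases thus differed in the size of the ratio more than in its direction, and the share over all genes was not counted. The comparison is 1 library against 1, with no replicate check. Cdo1AKO 2 was the highest of the 6 libraries for 9 mitosis genes, 2 replication genes and 6 G1 genes, against 31.7% of all genes, and control 1 was the lowest for 16, 11 and 5, against 25.3%. In the 2 controls with Ms4a1, control 2 exceeded control 3 by a median factor of 1.56 for mitosis, 1.30 for replication and 1.09 for G1, with all 16 mitosis genes higher in control 2.

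The direction of the mitosis genes between genotypes rested on which libraries entered. In the 4 libraries with Ms4a1 (2 per genotype), the median log2 fold change of mitosis genes was -0.12, with 5 of 16 above 0, against 50.3% of all genes. It was 0.27 for replication and 0.22 for G1 in those libraries. Without control 1 alone the medians were -0.015 for mitosis, 0.086 for replication and 0.16 for G1, and without Cdo1AKO 2 alone 0.25, 0.55 and 0.34. A fit on all 6 libraries with an added term for Ms4a1 status gave 0.53 for mitosis, 0.53 for replication and 0.24 for G1, and called none of the 42 while calling 686 genes (4.13%).

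In the fit on the 4 libraries with Ms4a1, 2617 of 17049 genes passed (15.3%), and 2 of the 42 did. Cdkn2c was lower in Cdo1AKO, with a log2 fold change of -1.58 ± 0.11 (SE, edgeR adjusted p = 0.0025), and Cdk6 was higher, at 0.56 ± 0.14 (edgeR adjusted p = 0.0435). A share of 2 in 42 is below the background of that fit. Markers of several cell types also differed there. The summed level of 10 T cell markers was 425 and 246 CPM in control 2 and 3 and 1170 and 1171 CPM in Cdo1AKO 1 and 3, and all 10 passed as higher. Of the adipocyte markers 7 of 9 passed as lower, and of the germinal centre B cell markers 4 of 5 did. Their part in the values of Cdkn2c and Cdk6 was not tested.

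**Figure D5:**
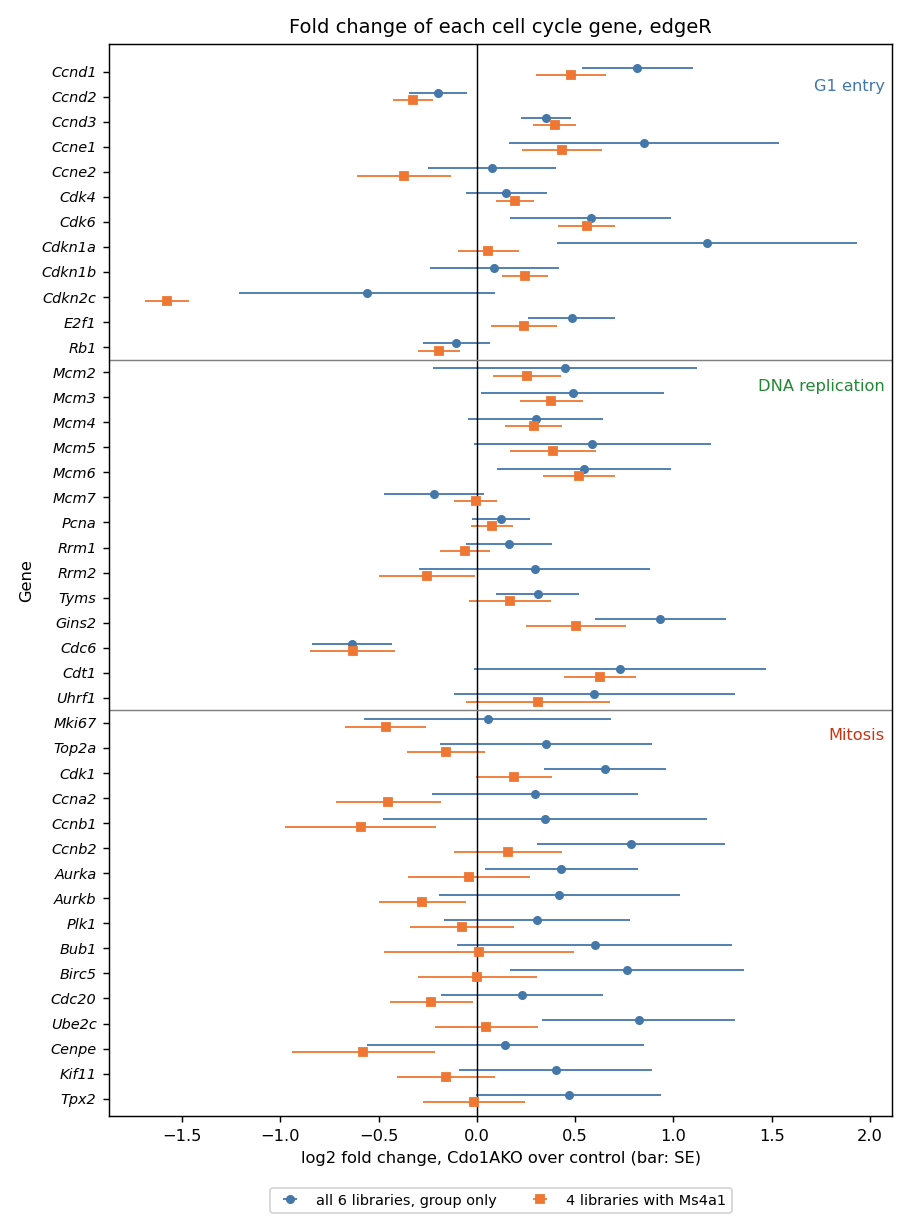
Log2 fold change of each gene, Cdo1AKO over control, with its SE, from all 6 libraries (circles) and from the 4 libraries with Ms4a1 (squares). In the circles all 16 mitosis genes are above 0, in the squares 5 of 16 are, and Cdc6 has nearly the same value in both.

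Other genes of each phase, from lists drawn up by textbook function, were read in the same way. Of 58 further mitosis genes none passed in the comparison of genotypes, 54 had a log2 fold change above 0 and the median was 0.50, which became 0.031 in the 4 libraries with Ms4a1. The interaction, with its single library per genotype without Ms4a1, passed for 22 of the 58, all negative, against 8.04% of all genes on that side. Foxm1, a factor that drives G2 genes (-2.66), and Cenpf, a kinetochore gene (-2.75), are examples picked after their values were seen. Spc25, a kinetochore subunit, had the smallest unadjusted p of that list between genotypes, at 1.90, 2.73 and 2.09 CPM in controls and 2.95, 12.3 and 3.84 CPM in Cdo1AKO (log2 fold change 1.5 ± 0.59 SE, edgeR adjusted p = 0.47). Racgap1, needed for cytokinesis, was 3.50, 14.5 and 7.13 CPM in controls and 18.0, 16.5 and 19.5 CPM in Cdo1AKO (1.10 ± 0.49 SE). The interaction passed for 0 of 36 further replication genes, 9 of which had an unadjusted p under 0.05, against 29.1% of all genes.

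Among those 36 replication genes the median log2 fold change was 0.31, and 31 were above 0. Rfc4, a subunit of the clamp loader that places Pcna on DNA, had the smallest p of the list. It was 3.80, 3.91 and 4.45 CPM in controls and 10.1, 8.04 and 8.40 CPM in Cdo1AKO, with all knockout libraries above all controls whatever their Ms4a1. The log2 fold change was 1.13 ± 0.21 (SE) with an edgeR adjusted p of 0.267, which was 0.038 with the term for Ms4a1 status and 0.0168 in the 4 libraries with Ms4a1. DESeq2 gave an adjusted p of 0.00659 and the value in the authors' deposited table was 0.00625. Rpa3, of the single-strand binding complex, was 6.57 to 9.74 CPM in controls and 10.04 to 12.2 CPM in Cdo1AKO (0.49 ± 0.22 SE).

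Of 20 further G1 genes none passed between genotypes, 17 had a log2 fold change above 0 and the median was 0.14. Cdkn2b, the p15 inhibitor, was 7.12, 4.65 and 6.595 CPM in controls and 7.65, 22.1 and 6.59 CPM in Cdo1AKO, high in Cdo1AKO 2 like Cdkn1a and Cdkn2c. Cdkn1c, the p57 inhibitor, was 35.6, 21.2 and 26.9 CPM in controls and 22.0, 10.04 and 19.7 CPM in Cdo1AKO, lowest in Cdo1AKO 2, with a log2 fold change of -0.69 ± 0.34 (SE, edgeR adjusted p = 0.56).

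Germinal centre B cells are the dividing B cells of a lymph node, and 5 of their markers were read. They summed to 39.9, 133.9 and 92.5 CPM in controls and to 49.9, 96.2 and 49.5 CPM in Cdo1AKO, lowest in control 1 and, within Cdo1AKO, highest in Cdo1AKO 2, as the mitosis sum was. Most of that sum is Bcl6, a transcription factor that other cells make too, with 80.0 CPM in Cdo1AKO 2. Rgs13 had 0 counts in control 1 and in Cdo1AKO 2. Mybl1, a transcription factor, was 1.47, 8.93 and 6.86 CPM in controls and 2.65, 2.12 and 1.98 CPM in Cdo1AKO (log2 fold change -1.35 ± 0.63 SE, edgeR adjusted p = 0.528), low in control 1 but not high in Cdo1AKO 2. Their part in the levels of mitosis genes was not tested.

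In Cdo1AKO 2, where lymph node genes were near 0, markers of 3 other cell types were at their highest sum. The macrophage list (9 genes, none at 0) summed to 300, 263 and 280 CPM in controls and 352, 493 and 348 CPM in Cdo1AKO, the endothelial list (6 genes, none at 0) to 989, 793 and 939 CPM and 805, 1650 and 763 CPM, and the progenitor list (8 genes, none at 0) to 1926, 1405 and 1685 CPM and 1828, 4694 and 1735 CPM. The progenitor sum there is mostly collagen, with Col3a1 at 2743 CPM in Cdo1AKO 2 and 643 to 832 CPM elsewhere. Among controls, however, each of these 3 sums was highest in control 1, where the mitosis sum was lowest. Cd68, a macrophage gene, was 17.0, 26.5 and 25.4 CPM in controls and 35.4, 45.4 and 34.9 CPM in Cdo1AKO. It was lowest in control 1 and highest in Cdo1AKO 2, as were 9 of the 16 mitosis genes against 6.61% of all genes. The macrophage list was mixed in controls, with 5 of 9 genes lowest in control 1 and 4 lower in both other controls than in control 1. Epithelial markers summed to at most 2.36 CPM in controls and 3.29 CPM in Cdo1AKO, and Csn3 was at 0 in all libraries. The part of these cell types in the levels of cell cycle genes was not tested.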

How the data were processed

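Bulk RNA-seq of 6 libraries (3 per group) was analysed. The authors deposited 1 table of raw counts per gene and sample, per the file headers, with FPKM values, also made by the authors and not used here, and their own comparison. That comparison, the authors' deposited table, gives log2 ratios beside raw and adjusted p-values. The submitters' processing notes list DESeq2 1.20.0, HISAT2 2.0.5, mm10 and featureCounts 1.5.0-p3, with no roles. Per the labels' protocols, a NEBNext Ultra kit was used on TRIzol-extracted RNA.

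Groups and replicate numbers came from sample titles. Counts were tested with edgeR 4.0.16 in R 4.3.3 (quasi-likelihood, TMM scaling, filterByExpr by group, Benjamini-Hochberg over 16623 genes, threshold 0.05, group as the only term). SE is the size of the log2 fold change divided by the square root of F. SD is over 3 libraries. DESeq2 1.42.0 and voom of limma 3.58.1 were alternatives, with other scalings and filters, a replicate block and libraries left out. Ms4a1 status marks libraries above 5 CPM. The edgeR fits, the interaction included, were run on simulated data with independent noise in each library. No simulated library deviated as a whole, so the reliance of the interaction on 1 library without Ms4a1 per genotype was not tested. The members, lists and tests were chosen with earlier results of these data known, and the interaction test was added after its values were seen.

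Named with values are Ccnd1, Ccnd2, Ccnd3, Cdkn1a, Cdkn1b, Pcna, Mki67, Top2a and Cdk1, in each phase the 4 genes of smallest p and the 2 of highest level per kilobase, and in each other list the 2 of smallest p. Some genes of marker lists that the rule names are not described. A germinal centre marker was left out of its list and is not reported here. Other members are given by range or as examples chosen after their values were seen, as were Foxm1 and Cenpf. Of the 42 genes, 9 overlap another gene with at least 100 counts, and 3 have a pseudogene with at least 10. Promoters come from RefSeq (GRCm38.p6), without the 50 bases after the start.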

Additional observations from a re-analysis of the deposited data

Results flagged for a closer look

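For 18 genes, the difference between libraries with and without Ms4a1 differed between Cdo1AKO and control by the edgeR interaction test, adjusted over all genes, of which 11.6% passed. The test was added after the pattern was seen in the same values, so it measures the pattern and is no independent support for it. The size is the log2 ratio in Cdo1AKO minus that in controls. Of mitosis genes it was -2.73 for Mki67, -2.33 for Top2a, -2.53 for Ccna2, -4.28 for Ccnb1, -2.18 for Ccnb2, -3.04 for Aurkb, -2.87 for Birc5, -1.75 for Cdc20, -2.33 for Ube2c, -3.30 for Cenpe, -2.20 for Kif11 and -1.94 for Tpx2. Of replication genes it was -1.48 for Mcm2, -2.59 for Rrm2 and 0.81 for Mcm7. Of G1 genes it was -2.70 for Ccne1, -1.82 for Cdkn1a and -1.81 for Cdkn2c. The adjusted p ran from 0.00244 for Cdkn2c to 0.0442 for Tpx2. Each genotype has a lone library without Ms4a1, so none of these values has a replicate on that side.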

How the results depend on the processing

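With all 6 libraries, none of the 42 genes was called under RLE or upper quartile scaling, other filters, DESeq2, voom, robust estimation or the Ms4a1 term. In the 4 libraries with Ms4a1, 2 of the 42 were called. Over all genes, calls numbered 271 with DESeq2, 686 with the Ms4a1 term and 2617 in the 4 libraries with Ms4a1, against 0. The median log2 fold change of mitosis genes was -0.12 in those 4 libraries and ran from -0.015 (without control 1) to 0.88 with 1 library left out, against 0.41. The log2 ratio of summed CPM for mitosis was -0.22 in those 4 libraries and ran from -0.045 (without control 1) to 0.87, against 0.36. For G1 that ratio was -0.059 in the 4 libraries and ran from -0.042 (without Cdo1AKO 2) to 0.24, against 0.15. Cdo1 passed with the Ms4a1 term (-1.76, edgeR adjusted p = 0.0256) and in the 4 libraries (-2.05, 0.00345), and ran from -2.33 to -1.30 with 1 library left out. Same-numbered libraries deviated in opposite directions for number 1 and 2 (correlations of -0.66 and -0.67) and together for number 3 (0.45), so the numbers were not taken as pairs, and with the replicate block 0 genes were called, with medians of 0.59 for replication and 0.61 for mitosis. The interaction passed for 17 or 18 members under other scalings, a filter and robust estimation. These reruns of the interaction kept the same lone library without Ms4a1 in each genotype, so they do not test the reliance on it. Genes at low level, such as Bub1 (6 counts in control 1) and Ccnb1, have little depth behind them.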

Other observations

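Genes known as targets of p53, the factor that induces Cdkn1a, were also read. None of 13 passed between genotypes with all 6 libraries, 11 had a log2 fold change above 0 and the median was 0.22. In the 4 libraries with Ms4a1, 4 passed as higher (Bax, Btg2, Trp53inp1 and Bbc3) and 1 as lower (Phlda3), against 15.3% of all genes, with a lowest edgeR adjusted p of 0.00714. Bbc3, the gene of the cell death protein Puma, was 6.87, 14.3 and 10.2 CPM in controls and 30.7, 16.1 and 28.9 CPM in Cdo1AKO, without overlap (log2 fold change 1.27 ± 0.36 SE, edgeR adjusted p = 0.362, and 0.0231 with the Ms4a1 term). Btg2, an antiproliferative gene, was 73.0, 96.5 and 88.1 CPM in controls and 118, 117 and 126 CPM in Cdo1AKO (0.49 ± 0.15 SE, edgeR adjusted p = 0.384). Neither was high in Cdo1AKO 2 alone, the library in which Cdkn1a reached 309 CPM.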
